A study of Mus musculus with 12 samples.

Results

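The genes Cpa3, Ms4a2, Hdc, Fcer1a, Mcpt8 and Mitf, grouped here as mast cell and basophil genes, were followed. They are 6 of the 18194 genes that could be named from a probe set with 1 symbol. They were taken with all 9 of their probe sets that carry a single gene symbol, and they were chosen with their values in these arrays already known, so those values are described, no p-value is given for them, and nothing is read from whether they pass the threshold used for all genes. RNA came from leukemia cells of mice transplanted with marrow carrying a fusion of the MLL gene, either MLL-AF9 or MLL-NRIP3. The 4 groups were MLL-AF9 RictorΔ/Δ, whose cells have a Rictor deletion, MLL-AF9 Control with wild type Rictor, MLL-NRIP3 RictorΔ/Δ and MLL-NRIP3 Control, with 3 arrays each and 12 in all. Every group, controls included, carried an MLL fusion, went through a first transplantation and was sorted as K+G– marrow cells once CD45.2+ cells passed 50% of the white blood cells in blood, which was checked every 5 days from day 15. The labels give peripheral blood as host tissue, and they give neither the mice's age, the way Rictor was deleted, nor whether different mice were used for the 3 arrays within a group. P-values therefore measure only the spread between these arrays. Rictor encodes an essential subunit of the kinase complex mTORC2.

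Mast cells and basophils are granulocytes that bind IgE through the high-affinity receptor FcεRI and release histamine and proteases when antigen crosslinks it. Both arise in the bone marrow from progenitors that depend on GATA2. Mast cells keep the receptor tyrosine kinase KIT and complete their maturation in tissues, whereas basophils mature in the marrow and lose most KIT. Among the 6 genes, Ms4a2 and Fcer1a encode the β and α chains of FcεRI, Cpa3 encodes the granule exopeptidase carboxypeptidase A3, Hdc encodes histidine decarboxylase, which makes histamine, Mcpt8 encodes a protease of mouse basophil granules, and Mitf encodes a transcription factor needed for mast cell development.

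The deposited values are linear probe set intensities. The array medians were 8.16 to 8.36 in MLL-AF9 and 13.6 to 14.2 in MLL-NRIP3 leukemia, so levels in the models are not on 1 scale. Control features set MLL-NRIP3 Control arrays 1 and 2 apart. Over 18 hybridization control probe sets they had a mean log2 intensity of 11.2 and 10.6, where the other 4 MLL-NRIP3 arrays had 9.31 to 9.53. Their ratio of 5′ to 3′ Gapdh signal was 0.562 and 0.738, against 0.881 to 0.965. For MLL-AF9 Control array 3 these values were 9.46 and 0.901, where the other MLL-AF9 arrays had 8.96 to 9.18 and 1.01 to 1.09. In MLL-AF9 leukemia, Xist averaged 98.47 ± 94.96 on RictorΔ/Δ arrays and 2387 ± 48.5 on Control arrays (SD, n = 3 each). The Y-linked Eif2s3y averaged 162 ± 20.9 on RictorΔ/Δ arrays and 4.97 ± 2.46 on Control arrays. Genotype and sex of the cells thus cannot be told apart in that model. Every difference of the responses between the models contains the MLL-AF9 contrast, so the same limit holds there. The Rictor probe set gave log2 differences of 0.01 ± 0.09 in MLL-AF9 and −0.09 ± 0.19 in MLL-NRIP3 leukemia, and as the sources used here do not give the deleted part of Rictor, it checks nothing about the labels. Differences below are RictorΔ/Δ minus Control on the scale log2(intensity + 16), ± the standard error of a limma fit of that model's 6 arrays. This scale understates the change of dim probe sets.

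In MLL-NRIP3 leukemia Cpa3 and Hdc were higher on every RictorΔ/Δ array than on any Control array. Ms4a2 was so with 1 of its 2 probe sets and overlapped with the other, and it was not among the genes called there. In MLL-AF9 leukemia Hdc was lower and Cpa3 and Ms4a2 overlapped between genotypes. Mcpt8 and Mitf overlapped between genotypes in both models, and Fcer1a lay at the bottom of the intensity range on all 12 arrays. In RNA of many cells, more cells of a type and more RNA per cell cannot be told apart. Which of the sorted cells expressed these genes was not measured.

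**Figure D1:**
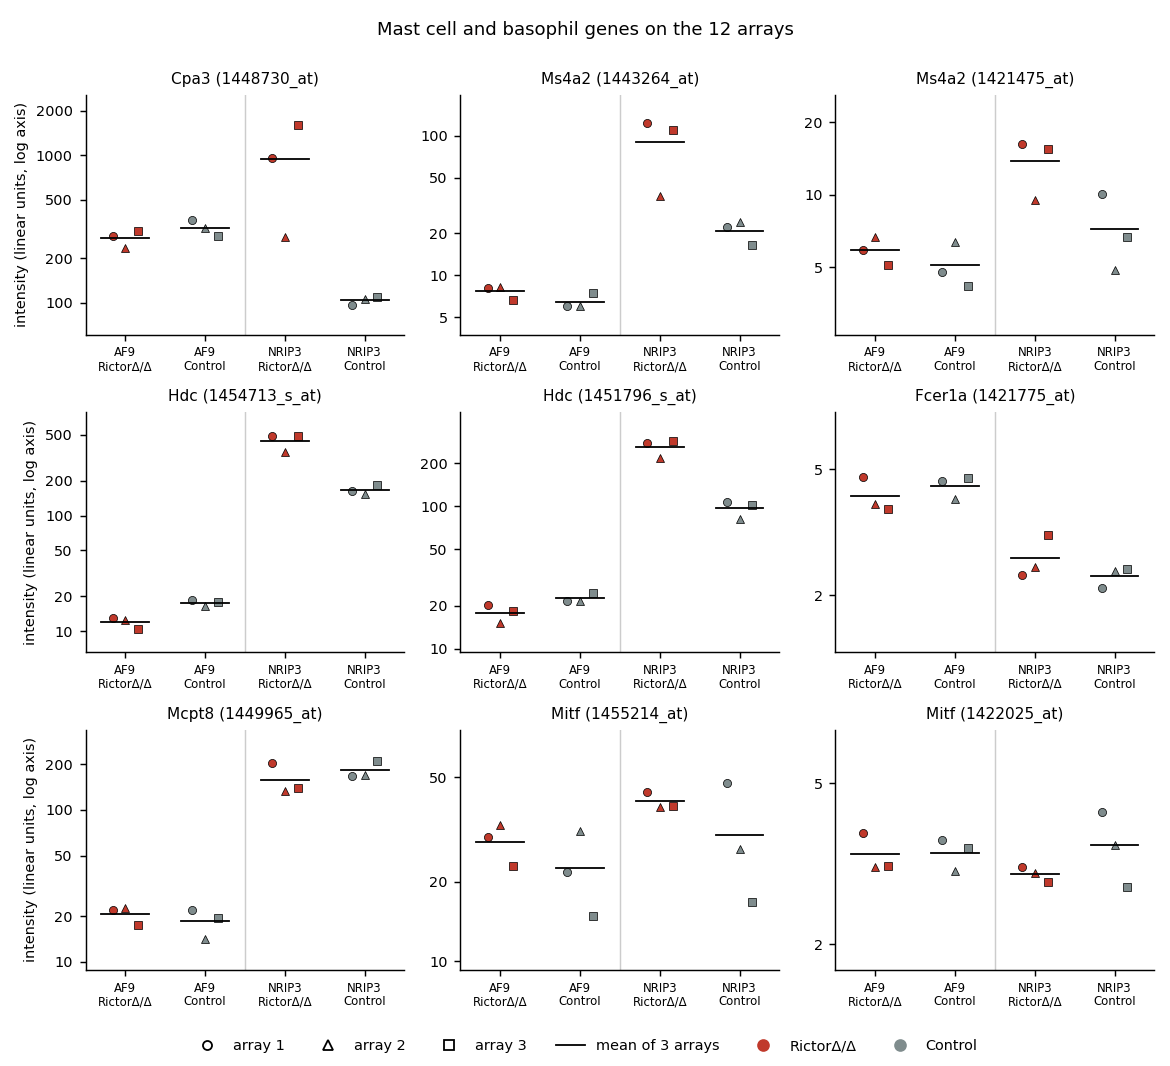
Linear intensity (log axis) of the 9 probe sets of the 6 genes on each of the 12 arrays. RictorΔ/Δ is left of Control within each model, symbols are array numbers and bars are means of 3 arrays; on the MLL-NRIP3 side the RictorΔ/Δ arrays lie above the Control arrays for Cpa3, 1 of 2 Ms4a2 probe sets and both Hdc probe sets.

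Of the IgE receptor chains, Ms4a2 was measured by probe sets 1443264_at and 1421475_at. With 1443264_at, intensities were 123.4, 36.8 and 110.1 on MLL-NRIP3 RictorΔ/Δ arrays 1 to 3, against 22.1, 24.0 and 16.4 on MLL-NRIP3 Control arrays. All 3 RictorΔ/Δ arrays lay above the Controls, and the lowest, array 2, was 1.53 times the highest Control. The means were 90.1 ± 46.6 and 20.8 ± 3.94 (SD, n = 3 each), and the log2 difference was 1.41 ± 0.33. The dimmer 1421475_at read 16.3, 9.52 and 15.5 on MLL-NRIP3 RictorΔ/Δ arrays and 10.1, 4.88 and 6.69 on MLL-NRIP3 Control arrays. Here the genotypes overlapped, since RictorΔ/Δ array 2 fell below Control array 1, and the log2 difference was 0.36 ± 0.11. In MLL-AF9 leukemia, 1443264_at read 8.15, 8.25 and 6.68 on RictorΔ/Δ arrays, against 6.06, 6.01 and 7.43 on Control arrays, near the array median in both genotypes and overlapping, with a log2 difference of 0.07 ± 0.04. The log2 difference of 1421475_at in MLL-AF9 leukemia was 0.05 ± 0.04.

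Fcer1a, the IgE-binding chain, was not seen above the dim end of the arrays. Its probe set 1421775_at read 2.31, 2.45 and 3.10 on MLL-NRIP3 RictorΔ/Δ arrays and 2.12, 2.38 and 2.42 on MLL-NRIP3 Control arrays. In MLL-AF9 leukemia it read 4.73, 3.90 and 3.75 on RictorΔ/Δ arrays and 4.59, 4.04 and 4.68 on Control arrays. It did not reach the mean of 7.70 required of a gene to be tested. Fcer1g, the γ chain that FcεRI shares with other Fc receptors, was bright in all groups and passed the test in neither model, with log2 differences of −0.30 ± 0.13 (limma, adjusted p = 0.26) in MLL-NRIP3 and −0.16 ± 0.05 (adjusted p = 0.10) in MLL-AF9 leukemia.

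Cpa3 showed the largest difference of the 6 genes in MLL-NRIP3 leukemia. Its 1 probe set, 1448730_at, read 959.5, 279.7 and 1616 on RictorΔ/Δ arrays 1 to 3, against 97.1, 105.6 and 110.1 on Control arrays. The Control arrays lay close together, while the RictorΔ/Δ arrays were spread widely, with array 2 the lowest at 2.54 times the highest Control. The means were 952 ± 668 and 104 ± 6.63 (SD, n = 3 each), and the log2 difference of 2.69 ± 0.51 is a 6.47-fold difference on that scale. In MLL-AF9 leukemia, Cpa3 read 282.4, 236.1 and 308.0 on RictorΔ/Δ arrays and 362.7, 319.7 and 282.5 on Control arrays. These overlapped, with a log2 difference of −0.21 ± 0.10.

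Hdc had 2 probe sets that gave the same direction in each model. With 1454713_s_at, MLL-NRIP3 RictorΔ/Δ arrays read 492, 353 and 491 and MLL-NRIP3 Control arrays 163, 154 and 185, a 2.50-fold difference on the log scale (1.32 ± 0.16). With 1451796_s_at, MLL-NRIP3 RictorΔ/Δ arrays read 279, 220 and 287 and MLL-NRIP3 Control arrays 107, 81.1 and 102, a log2 difference of 1.30 ± 0.16. Every RictorΔ/Δ array lay above every Control array with both probe sets, and array 2 was again the lowest of its group. In MLL-AF9 leukemia the order was the opposite: 1454713_s_at read 12.9, 12.5 and 10.5 on RictorΔ/Δ arrays, against 18.6, 16.5 and 17.9 on Control arrays. The other probe set, 1451796_s_at, read 20.2, 15.0 and 18.3 on RictorΔ/Δ arrays, against 21.5, 21.5 and 24.7 on Control arrays. The groups did not overlap with either probe set, and the log2 differences were −0.27 ± 0.05 and −0.19 ± 0.08.

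Mcpt8, the basophil protease gene, did not follow Hdc. Its probe set 1449965_at read 202, 134 and 139 on MLL-NRIP3 RictorΔ/Δ arrays and 168, 170 and 210 on MLL-NRIP3 Control arrays, overlapping, with a log2 difference of −0.21 ± 0.18. In MLL-AF9 leukemia it read 22.0, 22.7 and 17.5 on RictorΔ/Δ arrays and 21.9, 14.1 and 19.5 on Control arrays, with a log2 difference of 0.09 ± 0.09.

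Mitf, the transcription factor, was measured above the filter by 1455214_at. It read 43.9, 38.5 and 39.1 on MLL-NRIP3 RictorΔ/Δ arrays and 47.5, 26.7 and 16.8 on MLL-NRIP3 Control arrays. The Controls were the more variable, the groups overlapped, and the log2 difference was 0.34 ± 0.22. It was 0.12 without Control array 3 and 0.59 without Control array 1. In MLL-AF9 leukemia it read 29.6, 32.9 and 23.0 on RictorΔ/Δ arrays and 21.9, 31.3 and 14.8 on Control arrays, with a log2 difference of 0.22 ± 0.14. Its other probe set, 1422025_at, stayed between 2.76 and 4.25 on the 12 arrays.

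**Figure D2:**
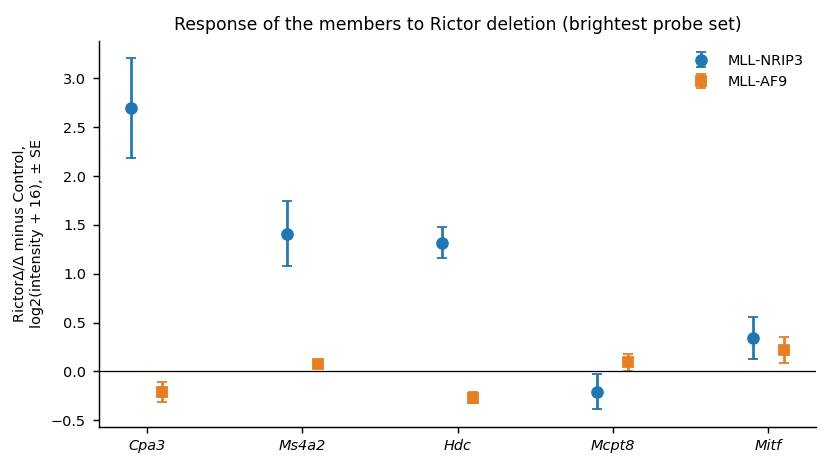
Response to Rictor deletion (RictorΔ/Δ minus Control, log2(intensity + 16)) of the 5 genes that passed the filter, by their brightest probe set. Points are limma estimates over 3 arrays against 3, bars are ± SE, circles MLL-NRIP3 and squares MLL-AF9; Cpa3 stands at 2.69 and Hdc at 1.32 in MLL-NRIP3 leukemia, against −0.21 and −0.27 in MLL-AF9 leukemia.

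The filter on low values was passed by 5 of the 6 genes, by 7 of the 9 probe sets. The dim Ms4a2 probe set 1421475_at passed only through the MLL-NRIP3 RictorΔ/Δ arrays, with a mean of 6.07 over the other arrays. In MLL-NRIP3 leukemia 2 of the 5 genes, Cpa3 and Hdc, were called higher at an adjusted p under 0.05, beside 0.779% of the 12573 genes tested, and 3 of the 5 had every RictorΔ/Δ array above every Control array, beside 9.7% of genes. No member was called lower there, beside 0.748%. In MLL-AF9 leukemia Hdc was called lower and none of the 5 was called higher, beside 4.46% and 3.8% of genes, and 1 of the 5 had every RictorΔ/Δ array below every Control array, beside 15.7%. Hdc was below in MLL-AF9 and above in MLL-NRIP3 leukemia without overlap, a pattern that 1.43% of genes had. The genes were picked from these contrasts, so nothing is read from these counts.

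Each response is a difference within 1 model, but the models differ in brightness for Ms4a2 and Hdc, which are dim in MLL-AF9 leukemia, so the pseudocount of 16 compresses their responses unequally. The MLL-AF9 response also joins genotype with sex of the cells, which cannot be told apart in any difference of the responses. The MLL-NRIP3 response minus the MLL-AF9 response was 2.91 ± 0.48 for Cpa3, 1.59 ± 0.18 for Hdc and 1.34 ± 0.29 for Ms4a2 on the log2 scale. With pseudocounts of 4 and 64 it was 1.62 and 0.79 for Ms4a2 and 1.82 and 1.23 for Hdc. For Mcpt8 it was −0.30 ± 0.23, and for Mitf it was 0.12 ± 0.32. Cpa3, Hdc and Ms4a2 were called in this difference, all higher, beside 2.25% of genes called higher and 2.53% called lower. The Cpa3 call ended without MLL-NRIP3 Control arrays 1 and 2. That omission leaves Control array 3 alone in its group, so a call lost there cannot be told from the loss of arrays. The Ms4a2 call ended under the same omission, without MLL-NRIP3 RictorΔ/Δ array 1 and with 1 spread shared by all 12 arrays. The Hdc call held under the 23 alternatives tried. The same arrays had served in choosing these genes, so nothing is read from the calls.

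Single arrays moved the size of the MLL-NRIP3 differences. Without RictorΔ/Δ array 2 the Cpa3 difference was 3.39, and without RictorΔ/Δ array 3 it was 2.16. It was positive under all 17 alternatives tried, but its call ended under 10 of them, among them the omission of RictorΔ/Δ array 1 or 3 or of Control array 1 or 2. For Ms4a2 the difference lay between 1.15, without RictorΔ/Δ array 1, and 1.85, without RictorΔ/Δ array 2, and without array 2 it passed the threshold. For Hdc it lay between 1.24 and 1.47, and its call ended without RictorΔ/Δ array 1 and without Control array 2. The Hdc call also ended without Control arrays 1 and 2 together, which leaves Control array 3 alone in its group. The Hdc call in MLL-AF9 leukemia ended without RictorΔ/Δ array 3. All of these fits reuse arrays that served in choosing the genes, so nothing is read from signs or calls kept or lost.

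**Figure D3:**
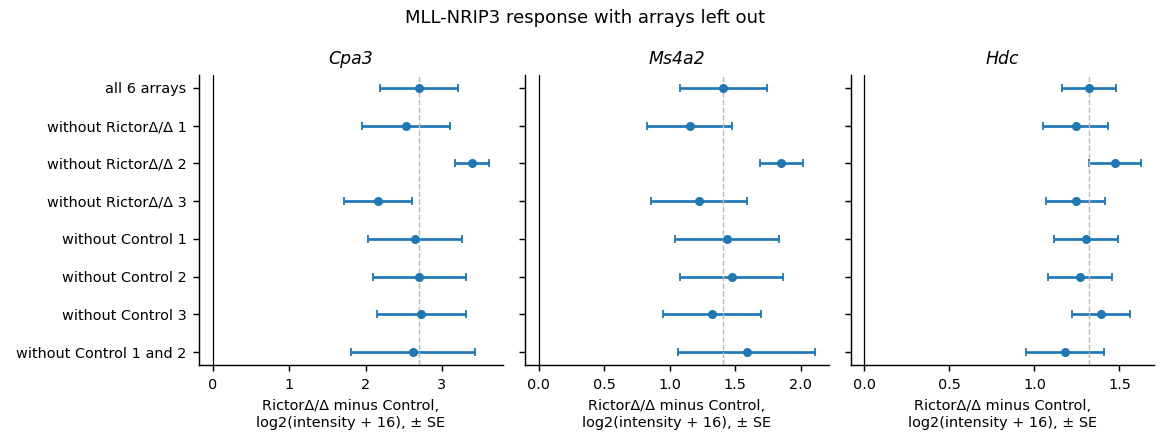
The MLL-NRIP3 response (RictorΔ/Δ minus Control, log2(intensity + 16), ± SE) of Cpa3, Ms4a2 and Hdc with all 6 arrays and with arrays left out. The dashed line is the value with all 6 arrays; every estimate lies above 0, and leaving out RictorΔ/Δ array 2 gives the highest of each gene, 3.39 for Cpa3, 1.85 for Ms4a2 and 1.47 for Hdc.

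The order of the 4 groups could be described only by rank within an array, because the models differ in scale. A rank need not remove a difference in array processing between the models, so nothing is read from the order across models. For Cpa3, the median percentile among all probe sets of an array was 97.6 in MLL-NRIP3 RictorΔ/Δ and 79.8 in MLL-NRIP3 Control, and 93.5 in MLL-AF9 RictorΔ/Δ and 94.2 in MLL-AF9 Control. MLL-NRIP3 Control was thus the group that stood below the others, and the other 3 overlapped. For Hdc (1454713_s_at) it was 94.6 in MLL-NRIP3 RictorΔ/Δ and 84.7 in MLL-NRIP3 Control, and 58.2 in MLL-AF9 RictorΔ/Δ and 63.5 in MLL-AF9 Control, with no overlap between any groups. For Ms4a2 (1443264_at) it was 81.4 in MLL-NRIP3 RictorΔ/Δ and 58.6 in MLL-NRIP3 Control, and 49.6 in MLL-AF9 RictorΔ/Δ and 40.5 in MLL-AF9 Control, of which the MLL-AF9 groups overlapped. Mcpt8 stood at 84.3 in MLL-NRIP3 RictorΔ/Δ and 85.6 in MLL-NRIP3 Control, and at 66.0 in MLL-AF9 RictorΔ/Δ and 64.6 in MLL-AF9 Control, with overlap between genotypes in both models.

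The promoters of Cpa3, Ms4a2 and Hdc, the 3 members with a probe set without overlap between genotypes in MLL-NRIP3 leukemia, are given because GATA factors, of which GATA2 is needed for both lineages, bind letters that can be searched in them. Each line is the 250 bases before the RefSeq start (GRCm38.p6), 5′ to 3′ on the gene's strand, with AGATAA or TGATAA on either strand (TTATCT or TTATCA when read on the gene's strand) in capitals.
Cpa3, chr3:20242182-20242431, minus strand: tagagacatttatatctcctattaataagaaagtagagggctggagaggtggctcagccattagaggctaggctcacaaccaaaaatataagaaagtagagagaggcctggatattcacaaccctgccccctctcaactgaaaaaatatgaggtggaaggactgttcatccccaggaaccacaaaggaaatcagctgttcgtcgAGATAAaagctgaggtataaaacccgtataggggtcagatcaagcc
Ms4a2, chr19:11623720-11623969, minus strand: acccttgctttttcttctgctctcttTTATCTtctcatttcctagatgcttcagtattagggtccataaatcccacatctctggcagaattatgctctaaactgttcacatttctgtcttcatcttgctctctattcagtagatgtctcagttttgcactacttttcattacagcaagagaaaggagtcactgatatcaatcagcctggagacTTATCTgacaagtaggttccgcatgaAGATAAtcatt
Hdc, chr2:126618679-126618928, minus strand: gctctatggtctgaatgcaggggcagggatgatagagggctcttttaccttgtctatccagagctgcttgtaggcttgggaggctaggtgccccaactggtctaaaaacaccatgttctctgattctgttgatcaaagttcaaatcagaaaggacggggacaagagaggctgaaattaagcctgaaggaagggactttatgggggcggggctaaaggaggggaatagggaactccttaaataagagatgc
The Cpa3 window held 1 match, starting 46 bases before the start, and the Ms4a2 window held 3, at 224, 37 and 11 bases before it. The Hdc window held 0, as did that of Mcpt8, and the Fcer1a window held 1. Of the 3 windows of Mitf, which has several starts, 1 held 0 matches and the other 2 held 1 each, at 36 and 13 bases before the start. Matches were thus present and absent both among the members that were higher and among those that overlapped. Of 32851 RefSeq promoter windows of this length, 16.6% held a match. The E-box CACGTG or CATGTG (either strand), letters bound by MITF and its relatives, was in none of these 3 windows and in 17.6% of all windows; no GATA match overlapped one. A match is only a match of letters, and no binding was measured here.

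Around the members, 89 genes of mast cell and basophil biology were examined, of which 80 had a probe set of their own and 59 passed the filter. In MLL-AF9 leukemia 15 of the 59 were called (6 higher, 9 lower), 25.4% beside 8.26% of all genes, with a median log2 difference of −0.06 beside −0.01. In MLL-NRIP3 leukemia 2 of the 59 were called (1 higher, 1 lower), 3.39% beside 1.53%, with medians of −0.04 and −0.00. The responses of 8 genes differed between the models (6 higher and 2 lower in MLL-NRIP3), 13.6% beside 4.78% of all genes. Zfpm1, 1 of the 6, passed the filter only through the MLL-NRIP3 RictorΔ/Δ arrays. Of related genes not called, Tpsb2 and Itga2 passed only through that group, and Tpsg1 and Slc18a2 only through MLL-AF9 RictorΔ/Δ. Most of the related genes thus did not pass the test in MLL-NRIP3 leukemia. With 1 spread shared by all 12 arrays, 2 were called in MLL-AF9 and 15 in MLL-NRIP3 leukemia. The lists were written with earlier results of these data known, so nothing is read from these shares. Leaving out MLL-NRIP3 Control arrays 1 and 2 leaves Control array 3 alone in its group, so calls of related genes under that omission are not counted.

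**Figure D4:**
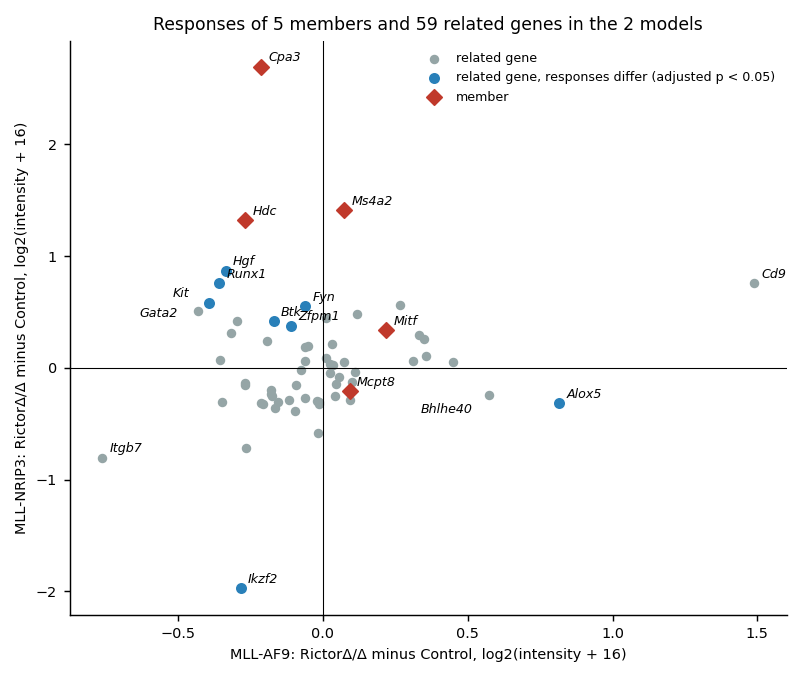
Response to Rictor deletion (RictorΔ/Δ minus Control, log2(intensity + 16)) in MLL-AF9 leukemia (x axis) and MLL-NRIP3 leukemia (y axis) of the 5 members (diamonds) and the 59 related genes (circles). Blue circles are the 8 related genes whose responses differed between the models at an adjusted p under 0.05; Cpa3, Ms4a2 and Hdc lie above the related genes on the y axis, Cpa3 at 2.69, and Ikzf2 lies lowest at −1.97.

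Of the granule proteins and mediator enzymes, 9 of 19 were tested. The chymase Cma1, the tryptase Tpsab1 and the proteases Mcpt1, Mcpt2 and Mcpt4, which mark mature mast cells, did not pass the filter, and the highest reading on any of the 12 arrays was 4.6 for Cma1, 6.5 for Tpsab1 and 10.3 for Mcpt4. The tryptase Tpsb2 passed, with a highest reading of 15.9 and a mean of 7.38 without MLL-NRIP3 RictorΔ/Δ, and differed by 0.03 ± 0.09 (adjusted p = 0.89) in MLL-NRIP3 and 0.04 ± 0.03 (adjusted p = 0.60) in MLL-AF9 leukemia. In MLL-AF9 leukemia 3 of the 9 rose, and in MLL-NRIP3 leukemia 0 did. Alox5, the 5-lipoxygenase that starts leukotriene synthesis, read 102, 90.1 and 101 on MLL-AF9 RictorΔ/Δ arrays and 44.3, 53.7 and 47.8 on MLL-AF9 Control arrays, a rise of 0.82 ± 0.09 (limma, adjusted p = 1.8e-04). Its partner Alox5ap rose by 0.35 ± 0.06 (adjusted p = 0.0040), and cathepsin G, Ctsg, by 0.45 ± 0.10 (adjusted p = 0.022), which was not called without RictorΔ/Δ array 2 or without Control array 1 or 3. Both lipoxygenase pathway genes and Ctsg are also expressed in neutrophils or their precursors. In MLL-NRIP3 leukemia Alox5 differed by −0.31 ± 0.21 (adjusted p = 0.48), and its response differed from that in MLL-AF9 leukemia by −1.13 ± 0.22 (adjusted p = 0.0096).

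Of the IgE receptor and its signalling proteins, 13 of 16 were tested, and 0 were called in MLL-NRIP3 and 2, both lower, in MLL-AF9 leukemia. Those were the adaptor Gab2 (−0.32 ± 0.07, limma, adjusted p = 0.018) and the lipid phosphatase SHIP1 gene Inpp5d (−0.21 ± 0.06, adjusted p = 0.047). The kinases Fyn and Btk differed between the models. Fyn, which signals from FcεRI, read 35.28, 24.64 and 23.61 on MLL-NRIP3 RictorΔ/Δ arrays and 13.97, 16.55 and 10.97 on MLL-NRIP3 Control arrays, against 5.42, 5.91 and 6.38 on MLL-AF9 RictorΔ/Δ arrays and 6.70, 6.84 and 6.96 on MLL-AF9 Control arrays. Its groups were apart in both models, below in MLL-AF9 and above in MLL-NRIP3 leukemia, an order that 1.43% of genes had. Every MLL-AF9 reading of Fyn lay under the mean of 7.70 required for testing, at the dim end of the arrays. The difference of the Fyn responses was 0.61 ± 0.11 (adjusted p = 0.0066). Neither response alone passed the test (adjusted p = 0.077 in MLL-NRIP3 and 0.31 in MLL-AF9). Btk, a cytoplasmic kinase downstream of the receptor, read 760, 712 and 711 on MLL-NRIP3 RictorΔ/Δ arrays and 550, 532 and 538 on MLL-NRIP3 Control arrays (0.42 ± 0.10, adjusted p = 0.081). In MLL-AF9 leukemia Btk read 178, 189 and 186 on RictorΔ/Δ arrays and 210, 205 and 213 on Control arrays (−0.17 ± 0.06, adjusted p = 0.13). The Btk responses differed by 0.59 ± 0.11 (adjusted p = 0.0072). That call ended without MLL-NRIP3 RictorΔ/Δ array 1 (adjusted p = 0.057).

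Of the surface receptors, 12 of 21 were tested. Kit, the receptor for stem cell factor, read 572, 406 and 593 on MLL-NRIP3 RictorΔ/Δ arrays and 307, 390 and 326 on MLL-NRIP3 Control arrays, a difference of 0.58 ± 0.17 that missed the threshold (limma, adjusted p = 0.14). In MLL-AF9 leukemia it read 137, 157 and 135 on RictorΔ/Δ arrays and 232, 160 and 192 on Control arrays (−0.39 ± 0.11, adjusted p = 0.056). The Kit groups did not overlap in either model, below in MLL-AF9 and above in MLL-NRIP3 leukemia, an order that 1.43% of genes had. The responses differed by 0.98 ± 0.25 (adjusted p = 0.041). That call ended under 10 of 23 alternatives, 7 of them the omission of 1 array (MLL-AF9 Control 3, RictorΔ/Δ 1 or 3, or MLL-NRIP3 Control 1 or 2, RictorΔ/Δ 1 or 3). In MLL-AF9 leukemia the tetraspanin Cd9 rose by 1.49 ± 0.16 (adjusted p = 1.7e-04). The integrin subunit Itgb7, used by mast cell progenitors to enter tissues, fell there by 0.76 on the log2 scale (SE 0.13, adjusted p = 0.0052). The interleukin 3 receptor subunit Il3ra fell there as well (−0.36 ± 0.09, adjusted p = 0.038). Cd9 and Itgb7 had the same signs in MLL-NRIP3 leukemia without being called (0.76 ± 0.28, adjusted p = 0.21, and −0.80 ± 0.42, adjusted p = 0.37). Il3ra differed by 0.07 ± 0.15 in MLL-NRIP3 leukemia (adjusted p = 0.84). Their responses were not called different between the models (adjusted p = 0.34 for Cd9, 0.98 for Itgb7 and 0.25 for Il3ra).

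Of the genes of basophil products, 4 of 10 were tested, none of them called in either model, and the cytokine genes Il4, Il13 and Il6 did not pass the filter. Hgf, a growth factor gene of this list, read 64.3, 48.2 and 141 on MLL-NRIP3 RictorΔ/Δ arrays and 38.2, 30.8 and 36.4 on MLL-NRIP3 Control arrays. Its responses differed between the models by 1.20 ± 0.30 (limma, adjusted p = 0.037), a call that ended under 12 of 23 alternatives, among them the omission of MLL-NRIP3 RictorΔ/Δ array 1 or Control array 1 or 2, or of MLL-AF9 RictorΔ/Δ array 2 or 3 or Control array 2 or 3.

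Of the transcription factors of the lineage, 18 of 20 were tested, and 7 were called in MLL-AF9 leukemia (2 higher, 5 lower) and 2 in MLL-NRIP3 leukemia. Gata2 read 174, 133 and 195 on MLL-AF9 RictorΔ/Δ arrays and 242, 203 and 244 on MLL-AF9 Control arrays, a change of −0.43 ± 0.12 (limma, adjusted p = 0.045). In MLL-NRIP3 leukemia it read 275, 251 and 285 on RictorΔ/Δ arrays, all above the 204, 146 and 212 on Control arrays, but the difference of 0.51 ± 0.16 missed the threshold (adjusted p = 0.16). The difference of the Gata2 responses, 0.94 ± 0.26, missed it as well (adjusted p = 0.054). Gata1, which acts beside GATA2 in mast cells, did not pass the filter and read at most 11.8. Runx1 rose in MLL-NRIP3 leukemia, with readings of 230, 190 and 221 on RictorΔ/Δ arrays and 116, 132 and 111 on Control arrays (0.76 ± 0.14, adjusted p = 0.042). In MLL-AF9 leukemia Runx1 read 180.7, 160.8 and 137.2 on RictorΔ/Δ arrays and 181.4, 199.1 and 247.9 on Control arrays, and it was not called (−0.36 ± 0.11, adjusted p = 0.085). Its responses differed between the models by 1.11 ± 0.24 (adjusted p = 0.017), a call that ended without MLL-NRIP3 RictorΔ/Δ array 1 (adjusted p = 0.088). Ikzf2, which encodes the Ikaros family factor Helios, fell in both models. It read 218, 102 and 236 on MLL-NRIP3 RictorΔ/Δ arrays and 514, 854 and 897 on MLL-NRIP3 Control arrays (−1.97 ± 0.31, adjusted p = 0.026). The MLL-AF9 arrays read 705, 700 and 756 for RictorΔ/Δ and 905, 856 and 879 for Control (−0.28 ± 0.05, adjusted p = 0.0066), and the responses differed by −1.69 ± 0.28 (adjusted p = 0.0030). The GATA cofactor gene Zfpm1 differed between the models by 0.49 ± 0.12 (adjusted p = 0.033). It passed the filter only through MLL-NRIP3 RictorΔ/Δ, where it is highest, with a mean of 7.57 over the other groups, so the test carries no weight, and its call ended under 10 of 22 alternatives, 7 of them the omission of 1 array (MLL-AF9 Control 3 or RictorΔ/Δ 1 or 2, or MLL-NRIP3 Control 1 or 2 or RictorΔ/Δ 1 or 3).

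The other calls of this list in MLL-AF9 leukemia were Bhlhe40 (0.57 ± 0.09, limma, adjusted p = 0.0018) and Fli1 (0.36 ± 0.09, adjusted p = 0.035), which rose, and Stat5b (−0.35 ± 0.08, adjusted p = 0.018), Myb (−0.27 ± 0.05, adjusted p = 0.0093) and Lyl1 (−0.18 ± 0.05, adjusted p = 0.048), which fell. Bhlhe40 is needed for cytokine production by several kinds of immune cell, STAT5 carries signals from the interleukin 3 receptor and KIT, and MYB keeps progenitors immature. Cebpa, which must be off for mast cells to form, differed by −0.16 ± 0.22 (adjusted p = 0.75) in MLL-NRIP3 and by −0.09 ± 0.08 (adjusted p = 0.58) in MLL-AF9 leukemia. The MITF relatives Tfec, Tfe3 and Tfeb were called in neither model, with differences of −0.04 ± 0.12, −0.29 ± 0.22 and −0.14 ± 0.14 in MLL-NRIP3 leukemia and 0.11 ± 0.06, −0.02 ± 0.09 and 0.05 ± 0.08 in MLL-AF9 leukemia.

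Several of these calls ended when 1 array was left out. With 1 spread shared by all 12 arrays, Alox5 and Cd9 were the 2 of the 15 related genes that were called in MLL-AF9 leukemia. In MLL-AF9 leukemia the calls of Il3ra, Inpp5d and Lyl1 ended whichever of the 6 arrays was left out. Those of Gab2 and Stat5b ended without RictorΔ/Δ array 1 or 2 or Control array 3, that of Gata2 without RictorΔ/Δ array 1 or 2 or Control array 1 or 3, and that of Fli1 without RictorΔ/Δ array 2 or 3 or Control array 1 or 2. In MLL-NRIP3 leukemia the Runx1 call ended without any 1 array other than Control 3 (highest adjusted p 0.18), and the Ikzf2 call ended without RictorΔ/Δ array 1 or Control array 2 (highest adjusted p 0.10).

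**Figure D5:**
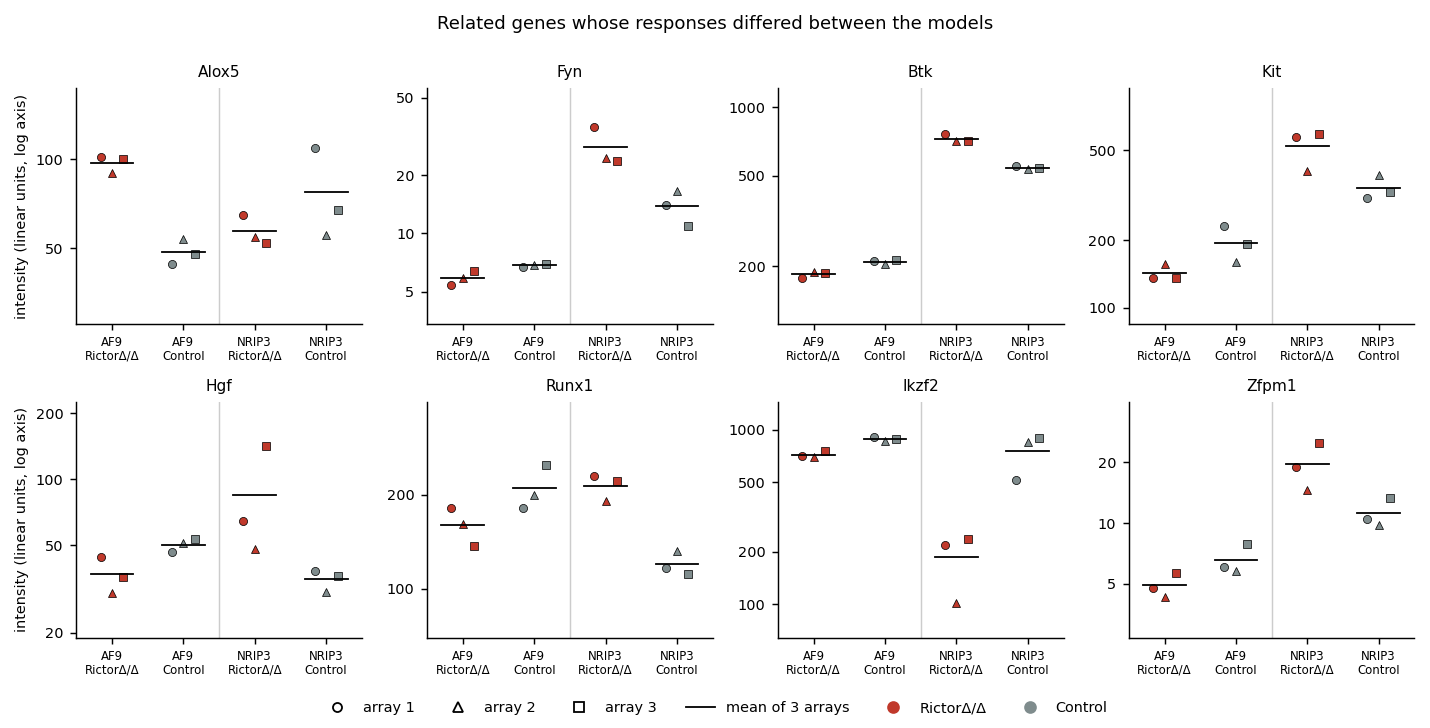
Linear intensity (log axis) on the 12 arrays of the 8 related genes whose responses to Rictor deletion differed between the models. RictorΔ/Δ is left of Control within each model, symbols are array numbers and bars are means of 3 arrays. Readings of Kit, Runx1, Fyn and Btk lie higher on RictorΔ/Δ arrays in MLL-NRIP3 and lower in MLL-AF9 leukemia. None of these genes was called in MLL-AF9 leukemia, where Fyn is dim and the Kit and Runx1 groups nearly meet. Only Runx1 of them was called in MLL-NRIP3 leukemia. Alox5 stands at 97.6 in MLL-AF9 RictorΔ/Δ against 48.6 in MLL-AF9 Control.

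Some markers of other cells also differed between genotypes, and their part in the member differences was not tested. Cd34, a surface marker of stem and progenitor cells that mast cell progenitors also carry, rose in MLL-NRIP3 leukemia by 1.41 ± 0.25 (limma, adjusted p = 0.035) and fell in MLL-AF9 leukemia (−0.44 ± 0.10, adjusted p = 0.017). Its MLL-NRIP3 call ended without RictorΔ/Δ array 1 or 3 or Control array 2, and its MLL-AF9 call without Control array 3. Itga2b, the integrin gene of megakaryocytes and early progenitors, rose by 1.18 ± 0.15 (adjusted p = 0.011) in MLL-NRIP3 leukemia. It was 1 of 6 tested megakaryocyte genes to be called there, beside 1.53% of all genes. The Itga2b call ended without Control array 2 (adjusted p = 0.058). The summed intensity of the megakaryocyte list was 203 to 226 on MLL-NRIP3 RictorΔ/Δ arrays and 115 to 122 on MLL-NRIP3 Control arrays, and 128 to 132 on MLL-AF9 RictorΔ/Δ arrays and 131 to 143 on MLL-AF9 Control arrays. Much of the MLL-NRIP3 gap was Itga2b itself: without it, the sums were 90.7 to 96.8 on MLL-NRIP3 RictorΔ/Δ arrays and 74.5 to 76.2 on MLL-NRIP3 Control arrays.

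The mature neutrophil list moved the opposite way to Cpa3, Ms4a2 and Hdc in MLL-NRIP3 leukemia, with 4 of 11 genes lower and none higher. Its sums were 1657 to 1979 on RictorΔ/Δ arrays and 21773, 9615 and 4957 on Control arrays 1 to 3. Control arrays 1 and 2, which control features set apart, thus had the higher Control sums. In MLL-AF9 leukemia all 11 were higher, with sums of 29638 to 32416 on RictorΔ/Δ arrays and 9196 to 13355 on Control arrays. Of all genes, 0.748% were called lower and 0.779% higher in MLL-NRIP3 leukemia, and 4.46% lower and 3.8% higher in MLL-AF9 leukemia. All 3 tested eosinophil genes (Prg2, Prg3 and Siglecf) fell in MLL-AF9 leukemia, with sums of 235 to 361 on RictorΔ/Δ arrays and 912 to 1153 on Control arrays, and 0 of 3 were called in MLL-NRIP3 leukemia, with sums of 124 to 187 on RictorΔ/Δ arrays and 131 to 264 on Control arrays. The defining eosinophil genes Epx, Il5ra and Ccr3 did not pass the filter. Of the 11 monocyte and macrophage genes, 6 fell in MLL-AF9 leukemia (among them Mrc1, which passed the filter only through MLL-AF9 Control). In MLL-NRIP3 leukemia 0 of them were called, with sums of 1258 to 2031 on RictorΔ/Δ arrays and 1150 to 2542 on Control arrays. Vcan of this list passed the filter only through MLL-NRIP3 RictorΔ/Δ, with a mean of 7.22 over the other groups. None of the 3 tested erythroid genes was called in either model.

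Immediate early and stress genes, which respond to cell handling among other stimuli, were higher in the same MLL-NRIP3 arrays. Of the 18, 3 (Fos, Jun and Dusp1) rose, beside 0.779% of all genes, calls that each ended without RictorΔ/Δ array 1 or 2 or Control array 1 or 2. The sums of the list were 17291, 19199 and 10492 on RictorΔ/Δ arrays 1 to 3 and 7591 to 8142 on Control arrays. Array 2, the lowest of its group for Cpa3, Ms4a2 and Hdc, had the highest of these sums. In MLL-AF9 leukemia 0 of 18 were called, with sums of 3444 to 3625 on RictorΔ/Δ arrays and 3425 to 3651 on Control arrays. Most of each MLL-AF9 sum was Hspa8, which read 2165 to 2318, so these sums say little about the immediate early genes. On the same arrays Jun read 5.90 to 28.9 and Fos 52.0 to 149. Hspa1a of this list passed the filter only through MLL-NRIP3 RictorΔ/Δ, with a mean of 6.52 over the other groups. The part of the immediate early and stress genes in the member differences was not tested.

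Genes most like each member were found by Pearson's r over the 12 arrays, after the mean of each model was removed. These arrays share the genotype contrast, so r mostly follows the group means and is given as a description with no test. Cpa3 was most like Parvb (r = 0.981), Car13 (r = 0.978) and Ctla2a (r = 0.975). Ms4a2 was most like Atp10a (r = 0.976), Prss36 (r = 0.953) and Matn2 (r = 0.952), and Hdc most like Rsad1 (r = 0.976), Sbk1 (r = 0.969) and Glb1l2 (r = 0.969). The counts of genes with r above 0.9 were 65 for Cpa3, 22 for Ms4a2 and 85 for Hdc, and 0 for Mcpt8 and Mitf, whose nearest genes were Pja1 (r = 0.842), Anp32a (r = 0.810) and Pttg1ip (r = 0.806), and Wrap73 (r = 0.899), Dynlt1f (r = 0.895) and Scly (r = 0.866).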

How the data were processed

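Sorted leukemia cells were measured on 12 Affymetrix arrays from 7 µg total RNA each, extracted with Trizol and labelled as biotin cRNA, per the labels' protocols. The authors deposited an intensity on a linear scale for every probe set. The sources used here do not give their summarisation and normalization. The medians of the models differ, so every contrast was made within a model. Groups and replicate numbers come from the sample titles. The number of arrays limits the precision.

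Genes were named from the platform annotation: of 45101 probe sets, the 34958 with a single symbol were used, and 932 with several symbols and 9211 without one were not. A gene's brightest probe set stood for it. Testing required a mean intensity of at least 7.70 (40th percentile of the probe sets), met by 12573 genes. Log2(intensity + 16) was fitted with limma 3.58.1 in R 4.3.3 (lmFit, eBayes with a trend) on the 6 arrays of a model, with 4 residual degrees of freedom. A spread shared by all 12 arrays was an alternative. The difference of the responses was fitted on all 12 arrays with array weights by model. Tests were two-sided, adjusted by Benjamini-Hochberg over the genes tested, and called under 0.05. An exact permutation test of 3 arrays against 3 was not used, as it cannot pass that threshold. Dim probe sets have no detection call here.

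The members, the gene lists and the rule for named genes were chosen with earlier results of these data known. The rule took all probe sets of the members, up to 4 called genes of each list per contrast by smallest p, a fixed set (Kit, Gata1, Gata2, Fcer1g, Cma1, Tpsb2, Mcpt4, Prss34, Il1rl1, Il3ra, Cebpa, Tfec and genes that check the labels) where measured, and the 3 genes most like each member. Other named genes (Lyl1, Stat5b, Fli1 and the members of the filtered lists) were chosen after their values were seen. Prss34 and Il1rl1 had no probe set with a single symbol. Promoters are from RefSeq (GRCm38.p6).

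On simulated data with 200 changed genes among 12573, log2 changes of 0.5, 1, 2 and 3 were recovered for 80%, 100%, 100% and 100% of genes at the spread of MLL-AF9 leukemia (199 calls, 4.52% of them false). At the spread of MLL-NRIP3 leukemia these shares were 20%, 66%, 92% and 100% (146 calls, 4.79% false). Python 3.11.15 with pandas 2.3.3, numpy 2.4.6 and matplotlib 3.10.9 made the tables and plots. Alternatives were a shared spread, quantile normalization, median centring, pseudocounts of 4 and 64, no filter and a stricter one, averaging over probe sets of a gene, testing every probe set separately, a replicate block, and the omission of each array in turn and of MLL-NRIP3 Control arrays 1 and 2 together.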

Additional observations from a re-analysis of the deposited data

Results flagged for a closer look

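The response to Rictor deletion differed between the models (MLL-NRIP3 minus MLL-AF9, log2 scale) for 3 members: 2.91 for Cpa3, 1.34 for Ms4a2 and 1.59 for Hdc. They were chosen from these arrays, so no p-value is given and nothing is read from their passing the threshold. Genotype and sex of the cells cannot be told apart in MLL-AF9 leukemia, and so in none of the differences of this section. Among the related genes the responses differed at an adjusted p under 0.05 (limma over 12 arrays) for Alox5 (−1.13), Fyn (0.61), Btk (0.59), Kit (0.98), Hgf (1.20), Runx1 (1.11), Ikzf2 (−1.69) and Zfpm1 (0.49), the last of which passed the filter on low values only through MLL-NRIP3 RictorΔ/Δ.

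Genes of other cells and of the label checks also differed between the models by the same test. The eosinophil granule genes Prg2 and Prg3 did so by 1.54 (adjusted p = 0.026) and 1.84 (adjusted p = 0.012), and the neutrophil genes S100a8 and S100a9 by −3.37 (adjusted p = 1.4e-04) and −4.64 (adjusted p = 1.3e-04). Itga2b differed by 1.51 (adjusted p = 1.5e-04), Cd34 by 1.85 (adjusted p = 0.0017) and the macrophage gene Mrc1 by 0.48 (adjusted p = 0.028). Mrc1 passed the filter only through MLL-AF9 Control, with a mean of 5.41 over the other groups, so its test carries no weight. Xist and Eif2s3y differed by 4.51 (adjusted p = 0.0060) and −3.11 (adjusted p = 2.4e-06), where Eif2s3y passed the filter only through MLL-AF9 RictorΔ/Δ (a mean of 3.24 over the other groups), and the immediate early gene Jun by 3.48 (adjusted p = 0.019).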

How the results depend on the processing

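With 1 spread shared by all 12 arrays, 176 genes were called in MLL-AF9 leukemia in place of 1039 and 1734 in MLL-NRIP3 leukemia in place of 192, with 2 related genes in place of 15 and 15 in place of 2, 0 members lower in MLL-AF9 in place of 1, 3 members higher in MLL-NRIP3 in place of 2, and 2 members in the difference in place of 3. The number of members called higher in MLL-NRIP3 leukemia was 1 with quantile normalization, a pseudocount of 64, no filter, averaged probe sets and each probe set on its own. Related genes called in MLL-NRIP3 leukemia numbered 1 with no filter and with each probe set on its own, and 0 with the mean of probe sets, which also gave 9 related genes in MLL-AF9 and 99 genes in MLL-NRIP3 leukemia. Each probe set on its own gave 10 related genes in MLL-AF9 leukemia and 940 probe sets in the difference, in place of 601 genes. Without MLL-NRIP3 Control arrays 1 and 2 there were 27 genes, 0 related genes and 0 members called in MLL-NRIP3 leukemia, and 246 genes, 2 related genes and 1 member (Hdc) in the difference. Leaving out 1 array at a time gave 582 to 963 genes and 7 to 13 related genes in MLL-AF9 leukemia, 30 to 862 genes and 0 to 7 related genes in MLL-NRIP3 leukemia, and 289 to 1113 genes and 3 to 12 related genes in the difference; members called were 0 to 1 lower in MLL-AF9, 0 to 3 higher in MLL-NRIP3 and 2 to 3 higher in the difference. The cause of these changes was not tested. The size of the members' differences followed the pseudocount: with 4 and 64 in place of 16, Hdc in MLL-AF9 leukemia was −0.44 and −0.10, and Ms4a2 in MLL-NRIP3 leukemia was 1.77 and 0.81. Averaged probe sets gave 0.82 for the difference of the Ms4a2 responses. Arrays with the same number in RictorΔ/Δ and Control did not deviate together (r between −0.135 and 0.0563). Arrays with unlike numbers gave r between −0.139 and 0.18, so r cannot settle whether the numbers pair arrays, and the main fits left them unpaired. With a replicate block, 960 genes and 14 related genes were called in MLL-AF9, 163 and 1 in MLL-NRIP3 leukemia, and 520 and 7 in the difference.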
